A study of Rattus norvegicus with 4 samples.

Results

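The genes described here encode the machinery of DNA replication and of mitosis in rat embryoid bodies that lack Kcnh2. They were chosen by name, 19 for S phase and 29 for mitosis, and a gene was taken where its symbol in the deposited tables equalled a listed name. That gave 46 of the 48, among 32753 genes in all: 18 S phase and 28 mitotic genes. No row carried the names E2f1 or Ccnb2, so these were not analysed here. All 46 were at 1 RPKM or more in at least 2 libraries and passed the filter on low values. RPKM scales reads by the length of the gene's transcripts and by the size of the library, so levels can be compared between genes.

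RNA-seq was made from wild-type (WT) and Kcnh2-/- embryoid bodies at differentiation day 4, 2 libraries per genotype. Kcnh2 encodes the voltage-gated potassium channel ERG1, and the labels name no other allele. Both genotypes derive from rat embryonic stem cells of strain DASD. The aggregates formed over 2 days in hanging drops with CHIR9902 (0.75 µM), PD0325901 (0.1 µM) and Y27632 (10 µM). They then attached to laminin for 24 hours with CHIR9902 and PD0325901 only, and spent 1 day in DM medium. Every library therefore comes from cells that had received the same agents. The labels do not say whether the Kcnh2-/- cells are 1 clone, or whether replicates were separate cultures, so p-values measure only the spread between these samples.

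In dividing cells the licensing factors Cdc6 and Cdt1 load the MCM helicase onto DNA before S phase. Polymerases, the PCNA clamp and the enzymes of deoxynucleotide supply then copy the genome. Mitosis is driven by cyclin-dependent kinase 1 with cyclin B, held by the spindle checkpoint, and ended by degradation through the anaphase-promoting complex. Genes of replication are typically induced by E2F factors, while many mitotic genes carry a short element called CHR, bound by the MuvB complexes that also hold B-Myb and Foxm1. Pluripotent cells divide fast with short gap phases, so these genes are usually high in them.

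Promoters of the S phase and mitotic genes differed in the letters they hold, and 6 are shown to make those letters visible. RefSeq promoters (build GRCr8, 250 bases before to 50 after the start) matched 39 of the 48 listed genes, 14 for S phase and 25 for mitosis. E2f1, E2f2, Mcm4, Cdc6, Rrm2, Ccna2, Aurkb, Tpx2 and Ube2c were not matched. The E2F letters TTTCGCGC or TTTGGCGC, on either strand, were in 9 of 14 S phase promoters (64.3%), in 1 of 25 mitotic promoters (4%) and in 0.792% of all 33469 promoters of that length. The S phase promoters with them were Cdc25a, Cdt1, Mcm2, Mcm3, Mcm5, Mcm6, Mcm7, Pola1 and Tyms, and the mitotic promoter was Cdk1. The CHR letters TTTGAA or TTCGAA, on either strand, were in 18 of 25 mitotic promoters (72%), in 4 of 14 S phase promoters (28.6%) and in 19.7% of all. The CCAAT box, CCAAT on either strand, was in 21 of 25 (84%), 10 of 14 (71.4%) and 37.5% of all. CHR and CCAAT letters stood together in 16 of 25 mitotic promoters (64%) and in 7.95% of all.

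**Figure D1:**
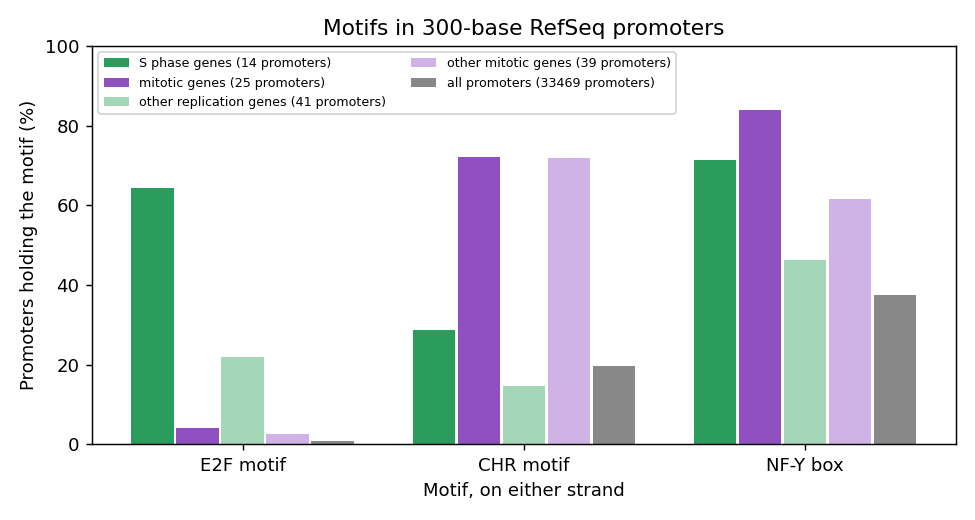
Share of RefSeq promoters (percent, y axis) that hold the E2F, CHR or NF-Y (CCAAT) motif on either strand, for the S phase and mitotic genes, for other replication and mitotic genes, and for all promoters. The E2F motif was in 64.3% of S phase and 4% of mitotic promoters, and the CHR motif in 28.6% and 72%.

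The 250 bases before the start are printed for the S phase and mitotic genes of smallest limma p that hold E2F or CHR letters there. Each is written 5′ to 3′ on the gene's strand, with the build GRCr8. Capitals mark the E2F letters above, their shorter forms TTCGCGC and TTGGCGC, and the CHR letters, on either strand. The shorter forms lie within the longer words, but TTGGCGC also stands alone at -19 to -13 in Pola1 and at -180 to -174 in Cdk1.
Pola1, chrX:62342356-62342605, minus strand: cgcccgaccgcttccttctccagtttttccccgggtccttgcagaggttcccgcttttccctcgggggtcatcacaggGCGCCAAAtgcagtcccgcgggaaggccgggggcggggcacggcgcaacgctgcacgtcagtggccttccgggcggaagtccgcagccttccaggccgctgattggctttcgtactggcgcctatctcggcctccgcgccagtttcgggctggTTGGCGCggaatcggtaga
Tyms, chr9:120776084-120776333, minus strand: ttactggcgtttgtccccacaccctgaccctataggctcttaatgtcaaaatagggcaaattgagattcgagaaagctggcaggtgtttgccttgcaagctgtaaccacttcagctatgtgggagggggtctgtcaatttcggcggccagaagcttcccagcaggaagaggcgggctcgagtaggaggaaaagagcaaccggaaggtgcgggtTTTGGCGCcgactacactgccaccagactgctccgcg
Mcm2, chr4:122918095-122918344, minus strand: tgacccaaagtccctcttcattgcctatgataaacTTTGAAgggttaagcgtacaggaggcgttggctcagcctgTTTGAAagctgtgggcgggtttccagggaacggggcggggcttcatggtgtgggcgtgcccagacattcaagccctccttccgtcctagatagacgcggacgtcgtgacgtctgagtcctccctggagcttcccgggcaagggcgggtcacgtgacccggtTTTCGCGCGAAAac
Prc1, chr1:143659231-143659480, plus strand: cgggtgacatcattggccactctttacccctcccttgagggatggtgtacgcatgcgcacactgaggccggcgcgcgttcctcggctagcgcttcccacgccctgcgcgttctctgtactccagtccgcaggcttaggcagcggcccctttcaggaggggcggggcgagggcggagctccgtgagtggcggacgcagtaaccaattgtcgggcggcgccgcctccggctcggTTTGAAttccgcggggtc
Birc5, chr10:103571896-103572145, plus strand: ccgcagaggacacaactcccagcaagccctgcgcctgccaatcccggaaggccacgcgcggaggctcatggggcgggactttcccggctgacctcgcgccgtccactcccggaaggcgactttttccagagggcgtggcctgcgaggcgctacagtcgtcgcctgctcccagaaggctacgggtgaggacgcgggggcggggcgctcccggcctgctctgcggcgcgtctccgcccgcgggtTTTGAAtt
Cdk1, chr20:19265043-19265292, plus strand: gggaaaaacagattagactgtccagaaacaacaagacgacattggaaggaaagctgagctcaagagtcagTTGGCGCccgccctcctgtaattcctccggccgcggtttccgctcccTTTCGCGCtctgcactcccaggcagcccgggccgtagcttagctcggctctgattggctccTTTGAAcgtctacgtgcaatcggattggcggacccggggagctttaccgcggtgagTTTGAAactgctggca
In Mcm2, 2 copies of TTTCGCGC on opposite strands overlap, at positions -14 to -7 and -10 to -3 from the start. In Prc1 and Birc5 the CHR letters lie close to the start, at -18 to -13 and -8 to -3. Cdk1 holds both kinds, with TTTCGCGC at -133 to -126 and TTTGAA at -72 to -67 and -16 to -11. A match of letters is a description of sequence and not a shown binding site. Of the other replication genes listed, 9 of 41 promoters (22%) held the E2F letters and 6 (14.6%) the CHR letters. Of the other mitotic genes, 1 of 39 (2.56%) held the E2F letters and 28 (71.8%) the CHR letters.

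The 4 libraries differed in ways the genotype does not define, and these touch the cell cycle genes. Kcnh2 itself was low, 2.61 and 1.45 RPKM in the WT libraries and 0.108 and 0.504 in those labelled Kcnh2-/- (limma adjusted p = 0.980), without overlap between the groups. Pou5f1 was at 273 to 1679 RPKM in every library. WT replicate 1 had the lowest sum of pluripotency markers: the 7 pluripotency markers in the files summed to 341 RPKM there, against 1563 in WT replicate 2 and 1197 and 2231 in Kcnh2-/-. Pou5f1 made up most of each sum, and Sox2 was lowest in Kcnh2-/- replicate 1 (18.1 RPKM, against 33.9 in WT replicate 1). The 6 cardiomyocyte markers summed to 677 RPKM in WT replicate 1 and to 43.3, 74.8 and 8.61 in the others. Tnnc1 (349 RPKM) and Actc1 (310) made up most of the sum in WT replicate 1, while Nkx2-5 and Myh6 stayed under 0.112 RPKM in all 4. Endoderm markers (6) summed to 181, 52.3, 44.0 and 2.85 RPKM, and primitive streak and mesoderm markers (7) to 38.2, 19.9, 22.7 and 11.2, in the order WT 1, WT 2, Kcnh2-/- 1, Kcnh2-/- 2. Eomes, at 8.70, 9.05, 11.5 and 9.79 RPKM in that order, made up most of the last sum. T, Mesp1, Gsc and Lhx1 were highest in WT replicate 1 and lowest in Kcnh2-/- replicate 2, and Mixl1 and Tbx6 stayed under 1 RPKM. Fibroblast markers (7) summed to 19.2, 1.47, 4.83 and 0.445 RPKM in that order, and blood markers (5) to 3.50 or less, with Tyrobp at 0 throughout. WT replicate 2 stood apart by chromosome: genes of chromosomes 3, 13 and 16 were higher in it than the mean of the other libraries by a median of 0.33, 0.35 and 0.37 on the log2 scale, relative to all autosomes. The replicate number also went with the share of the RPKM sum that lay outside protein-coding genes. It was 98.7% and 99.5% in WT and Kcnh2-/- replicate 1, and 93.9% and 90.3% in replicate 2. RPKM divides by length, and the highest single value was 1.96e+07, so these are not shares of reads. Across genes tested, log2(RPKM + 1) correlated at 0.90 between the replicate 2 libraries, at 0.83 between the replicate 1 libraries, and at 0.81 and 0.86 between the libraries of WT and of Kcnh2-/-. The genotypes differed in RNA from the sex chromosomes as well, and genotype and sex-chromosome expression cannot be told apart in this design. All 8 Y-linked genes tested summed to 252 and 209 RPKM in WT and to 4.86 and 1.75 in Kcnh2-/-, and 7 of the 8 were lower in both Kcnh2-/- libraries. Those 7 were under 1 RPKM in both Kcnh2-/- libraries and passed the filter through WT alone, so the filter fixed their direction. Eif2s3y, among those 7 and named after its values were seen, fell from 153 and 135 RPKM to 0.0574 and 0.140. Because the filter fixed its direction, no p-value is given for it.

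Differences are given as Kcnh2-/- minus WT in log2(RPKM + 1), a scale that understates changes of low genes, tested with limma over 12355 genes with Benjamini-Hochberg adjustment. No cell cycle gene passed an adjusted p of 0.05 in either direction, 0 of 18 for S phase and 0 of 28 for mitosis, where 0.113% of all genes tested did (14 of 12355). By direction, 0 of 46 were called higher in Kcnh2-/-, where 0.0324% of all genes tested were (4), and 0 of 46 lower, where 0.0809% were (10). At an unadjusted limma p under 0.05 there was 1 of 46, Pola1, against 3.38% of all genes tested. The smallest two-sided p that an exact permutation of 2 against 2 can give is 0.333. A p that misses the threshold does not show equal levels. In size, 44 of the 46 (95.7%) had group means within 1.5 times of each other, against 71.6% of all genes tested and 81.3% of those at a mean of 10 RPKM or more. Outside that range lay Pola1 and Rrm2. The median difference was 0.18 for S phase genes and 0.09 for mitotic genes, beside 0.01 for all genes tested and 0.09 for those at 10 RPKM or more. With quantile normalization the medians were 0.02 and -0.06.

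The size and the sign of these medians depended on which libraries were compared, of WT and of Kcnh2-/- alike. Within replicate 1 the median was 0.39 for S phase and 0.18 for mitotic genes, and within replicate 2 it was -0.04 and -0.03. Over all genes tested it was 0.01 within replicate 1 and 0.03 within replicate 2. At a mean of 10 RPKM or more it was 0.07 and 0.13. Without WT replicate 1 the medians were 0.02 and -0.10, and without WT replicate 2 they were 0.42 and 0.27. Without Kcnh2-/- replicate 1 they were 0.05 and 0.15, and without Kcnh2-/- replicate 2 they were 0.23 and -0.01. The medians over all genes tested were -0.02, 0.06, 0.05 and -0.06 in the same order of libraries left out. WT replicate 1 was the lowest of the 4 libraries for 34 of the 46 genes (73.9%), 14 of 18 for S phase and 20 of 28 for mitosis, against 34.7% of all genes tested. The gap between the 2 WT libraries was larger than the gap between genotypes for 35 of the 46 genes (76.1%), against 68.4% of all. The marker sums given above moved with WT replicate 1 as well, and the pluripotency markers with the replicate number. Their part in these values was not tested. Fewer dividing cells and less of each RNA per cell cannot be told apart in bulk samples.

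**Figure D2:**
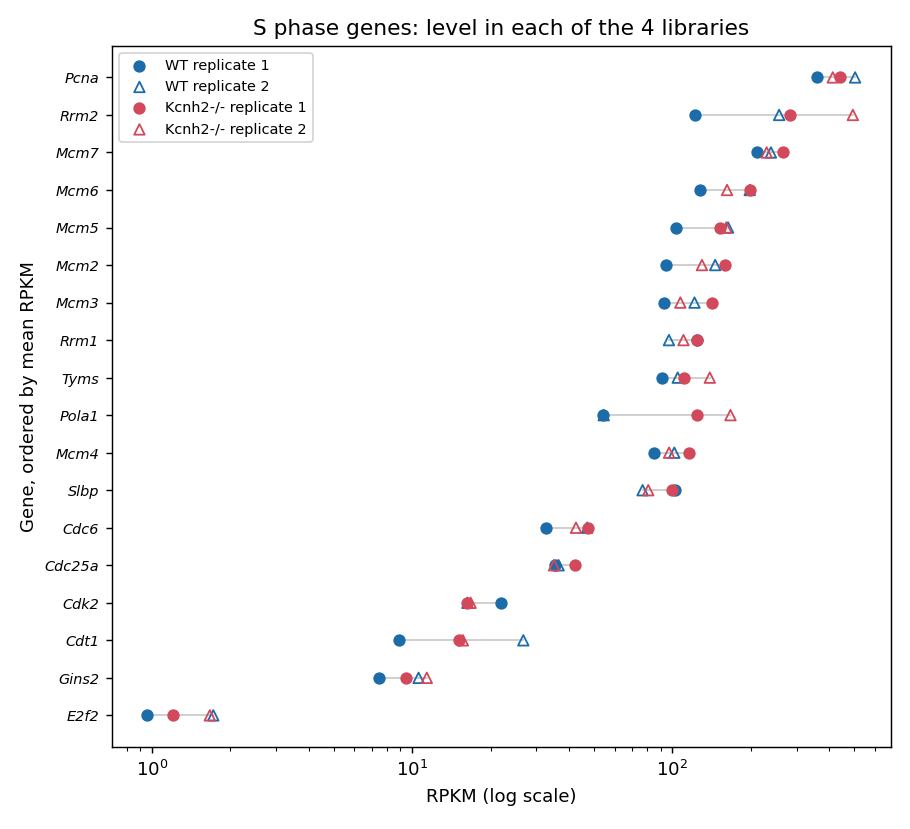
Level of each of the 18 S phase genes in the 4 libraries (RPKM, log axis). Filled circles are replicate 1 and open triangles replicate 2, blue for WT and red for Kcnh2-/-, and the grey line spans the lowest to the highest library. WT replicate 1 is the lowest point for 14 of the 18 genes, and the groups separate for Rrm2, Tyms and Pola1.

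Levels below are given as the 2 WT libraries against the 2 Kcnh2-/- libraries, replicate 1 before replicate 2. Among the S phase genes, those at the top of the program were close in both genotypes. E2f2, an activating E2F, was low everywhere, between 0.960 and 1.72 RPKM, with both extremes in WT. Cdc25a, the phosphatase that activates the S phase kinase, was at 35.3 and 36.5 against 42.3 and 35.1 RPKM, and the groups overlapped. Cdk2, the kinase of S phase entry, was at 22.0 and 16.3 against 16.3 and 16.8 RPKM, with WT replicate 1 above the other libraries (log2 difference -0.19 ± 0.28 SE, limma adjusted p = 0.980). Licensing factors varied more between the WT libraries than between genotypes. Cdt1 was at 8.86 and 26.7 RPKM against 15.1 and 15.7, so that both Kcnh2-/- libraries lay between the WT ones. Cdc6 was at 32.8 and 47.0 against 47.2 and 42.6 RPKM.

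The 6 subunits of the MCM helicase were each lowest in WT replicate 1. Mcm2 was at 94.1 and 146 RPKM against 159 and 129.8. Mcm3 was at 92.8 and 122 against 142 and 107 RPKM, and Mcm4 at 84.9 and 102 against 116 and 97.1. Mcm5 was at 103 and 164 against 152 and 161 RPKM. In each of the 6 the groups overlapped, with Kcnh2-/- replicate 2 between the 2 WT libraries. Mcm6, on chromosome 13, was at 128 and 198 against 198 and 162 RPKM, and Mcm7, the most abundant subunit, at 211 and 239 against 267 and 230.1. In the values as deposited, all 6 were higher in Kcnh2-/- within replicate 1 (median 0.58) and all 6 lower within replicate 2 (median -0.12), a combination found in 19.7% of all genes tested. Pooled log2 differences ran from 0.14 (Mcm7) to 0.29 (Mcm2, ± 0.33 SE), with unadjusted limma p of 0.421 or more, and with quantile normalization Mcm4, Mcm6 and Mcm7 were lower in Kcnh2-/- (-0.02, -0.05 and -0.14). The order of abundance was Mcm7, Mcm6, Mcm5, Mcm2, Mcm3 and Mcm4 in both WT libraries and in Kcnh2-/- replicate 2, with Mcm2 above Mcm5 in Kcnh2-/- replicate 1. The highest subunit stood 2.30 to 2.48 times above the lowest in each library. The 5 of these genes with a promoter in the table all held E2F letters.

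Of the replication fork genes, Pola1 stood out by its difference between genotypes. Pola1 (rn6 chrX:62382607-62698830) encodes the catalytic subunit of DNA polymerase alpha, which with primase starts each new DNA strand. It was at 54.1 and 54.5 RPKM against 124 and 167, that is 54.3 ± 0.227 against 146 ± 30.2 (SD, n = 2 each). Both Kcnh2-/- libraries were well above both WT libraries, 2.30 times within replicate 1 and 3.07 times within replicate 2. Its log2 difference, 1.39 ± 0.27 (SE), had the smallest unadjusted limma p among the cell cycle genes (0.00471, place 54 of the 12355), and limma's adjusted p was 0.980. The difference ran from 1.18 to 1.60 when each library was left out in turn. With a replicate term and protein-coding genes alone, Pola1 was the 1 of 46 called higher (limma adjusted p = 0.0433), where 0.526% of the genes tested were, and with a replicate term over all genes its limma adjusted p was 0.200. Pola1 was the X-linked gene among the 46, and X-linked genes as a whole stood higher in Kcnh2-/-. Of the 470 tested, 51.3% were higher in both Kcnh2-/- libraries than in either WT library. Over the 241 at a mean of 10 RPKM or more, the median difference was 0.84 within replicate 1 and 0.75 within replicate 2. Of those 241, 50 (20.7%) had a larger difference than Pola1, and how far the X-linked shift accounts for Pola1 was not tested. The near absence of Y-linked RNA in Kcnh2-/- stands beside that shift, so the Pola1 difference cannot be told apart from one between lines of unlike sex-chromosome expression. The autosomal partners of Pola1 in the same complex, from the list of other replication genes, were named after their values were seen. Pola2 was at 30.0 and 31.3 against 28.5 and 25.2 RPKM, Prim1 at 69.1 and 58.1 against 79.5 and 53.7, and Prim2 at 46.1 and 48.3 against 54.9 and 50.4. Pooled log2 differences ran from -0.18 (Pola2) to 0.15 (Prim2). The groups overlapped for Prim1 only, with Pola2 lower and Prim2 higher in both Kcnh2-/- libraries. Reads of Pola1 share a locus with 4 unnamed or contig-named genes, each at 2.83 RPKM or less in every library.

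The other fork genes did not separate. Pcna, the sliding clamp on chromosome 3 and the most abundant of the 46 by its mean over the libraries, was at 359 and 503 RPKM against 441 and 413 (log2 difference 0.01 ± 0.32 SE, limma adjusted p = 0.998, and -0.29 with quantile normalization). Gins2, a subunit of the GINS complex that opens the fork with MCM, was at 7.46 and 10.6 against 9.48 and 11.4 RPKM.

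In nucleotide supply, the larger difference lay in the small subunit of ribonucleotide reductase. Rrm2 (rn6 chr6:43884677-43889515), the regulated subunit that S phase cells make and then destroy, was at 122 and 257 RPKM against 284 and 493. Both Kcnh2-/- libraries were above both WT libraries, although WT replicate 2 lay close to Kcnh2-/- replicate 1. The log2 difference reached 1.08 ± 0.51 (SE; limma adjusted p = 0.980), 1.22 between the replicate 1 libraries and 0.94 between the replicate 2 libraries. It was 0.54 without WT replicate 1 and 1.61 without WT replicate 2. Rrm1, the large subunit, was at 124 and 97.0 against 124 and 110.2 RPKM. The ratio of Rrm2 to Rrm1 was 0.976 and 2.65 in WT and 2.28 and 4.48 in Kcnh2-/-, so on this measure the groups overlapped. Tyms, thymidylate synthase, was at 91.1 and 105 against 111 and 139 RPKM, with groups that did not overlap (log2 difference 0.34 ± 0.27 SE, limma adjusted p = 0.980). The Tyms difference was 0.18 without Kcnh2-/- replicate 2 and 0.51 without Kcnh2-/- replicate 1. Slbp, which binds the stem-loop of replication-dependent histone mRNAs, was at 103 and 76.8 against 99.3 and 80.7 RPKM.

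**Figure D3:**
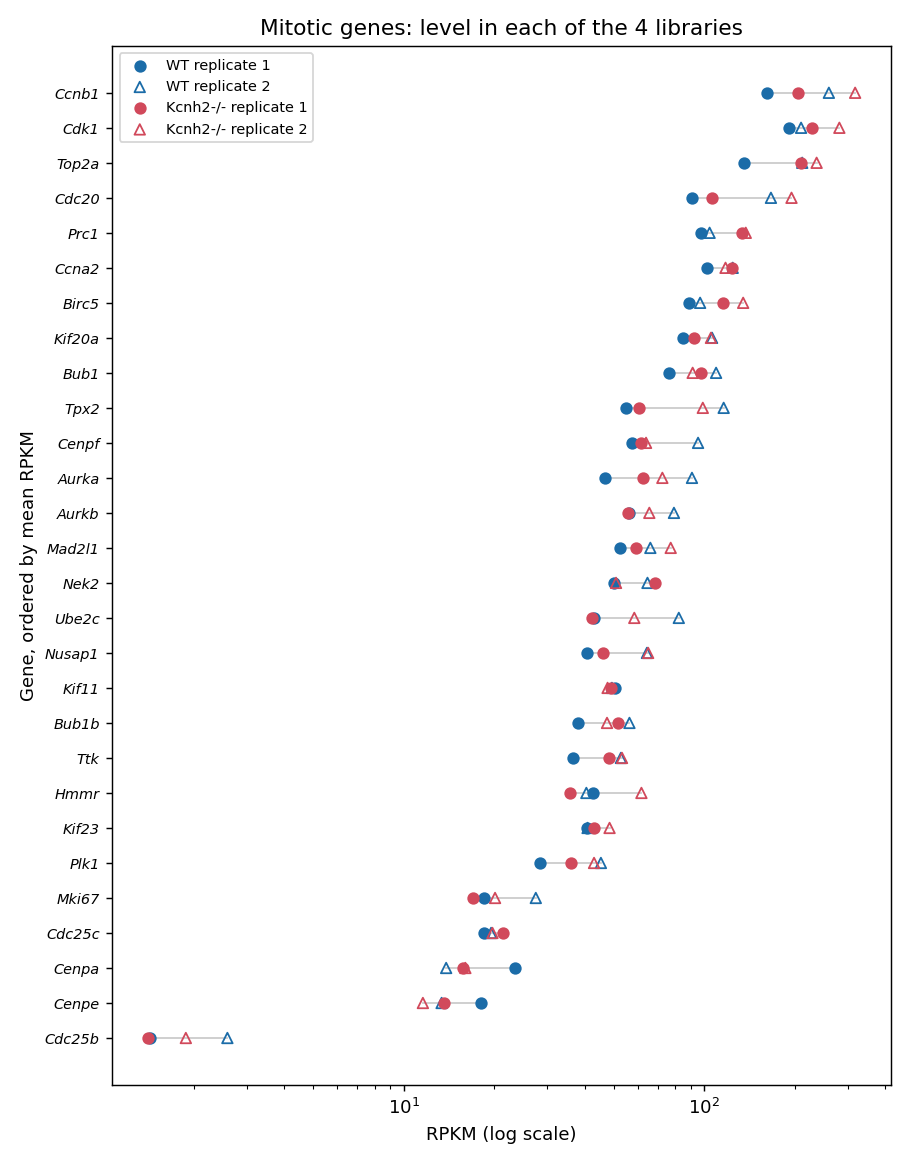
Level of each of the 28 mitotic genes in the 4 libraries (RPKM, log axis), drawn as for the S phase genes. The groups separate upwards for Cdk1, Cdc25c, Kif23, Birc5 and Prc1 and downwards for Kif11, whose 4 values lie between 47.6 and 50.3 RPKM.

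The mitotic genes were all within 1.5 times between genotypes, from a log2 difference of -0.29 (Cenpe) to 0.42 (Prc1). Of the entry kinases and phosphatases, Cdk1 was at 192 and 209.7 RPKM against 227 and 281, and the Kcnh2-/- values lay above both WT values (log2 difference 0.33 ± 0.27 SE, limma adjusted p = 0.980). The Cdk1 difference was 0.18 without Kcnh2-/- replicate 2 and 0.49 without Kcnh2-/- replicate 1. Its partner cyclin B1 (Ccnb1) was at 161 and 259.5 against 204 and 317 RPKM, and the replicate number separated these libraries more than the genotype did. Cyclin A2 (Ccna2) was at 102 and 124 against 123 and 118 RPKM. Cdc25c, which activates Cdk1, was at 18.5 and 19.5 against 21.4 and 19.7 RPKM, a narrow gap. The group also holds Cdc25b, Plk1, Aurka and Nek2, which overlapped between genotypes, with pooled differences from -0.16 (Cdc25b) to 0.13 (Plk1).

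Of the checkpoint and exit genes, Cdc20 followed the replicate number. Cdc20, the activator of the anaphase-promoting complex, was at 90.8 and 166 RPKM against 106 and 195. Both replicate 2 libraries were above both replicate 1 libraries, and the log2 difference between genotypes was 0.22 and 0.23 within the replicate numbers (pooled -0.04 with quantile normalization). Ube2c, the ubiquitin-conjugating enzyme of that complex, was at 42.9 and 82.2 against 42.4 and 58.4 RPKM. The checkpoint genes Bub1, Bub1b, Mad2l1 and Ttk overlapped between genotypes, with pooled differences from 0.05 (Bub1) to 0.20 (Ttk).

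At the centromere and in the chromosome passenger complex, Birc5 had groups that did not overlap. Birc5, which encodes survivin, the subunit that brings the complex to the centromere, was at 89.1 and 96.8 RPKM against 115 and 135. The Kcnh2-/- libraries were above both WT libraries (log2 difference 0.42 ± 0.25 SE, limma adjusted p = 0.980). Aurkb, the kinase of the complex, was at 55.9 and 79.2 against 55.8 and 65.6 RPKM. Its other subunits, named after their values were seen, were Incenp at 37.7 and 49.1 against 55.9 and 56.9 RPKM and Cdca8 at 94.7 and 102 against 107 and 128, neither with overlapping groups. Cenpe, a kinetochore motor, was at 18.0 and 13.3 against 13.6 and 11.6 RPKM. Cenpf, a large kinetochore protein gene on chromosome 13, was at 57.4 and 95.3 against 61.6 and 63.9 RPKM, with WT replicate 2 alone above the rest. Cenpa, the centromeric histone H3 variant, lay between 13.8 and 23.5 RPKM, with both extremes in WT.

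Of the spindle and cytokinesis genes, Prc1 and Kif23 were higher in both Kcnh2-/- libraries. Prc1, which bundles the antiparallel microtubules of the midzone, was at 97.7 and 104 RPKM against 134 and 137, or 101 ± 4.51 against 136 ± 2.49 (SD, n = 2 each). The groups did not overlap, and the log2 difference reached 0.42 ± 0.24 (SE; limma adjusted p = 0.980), 0.45 between the replicate 1 and 0.40 between the replicate 2 libraries. Kif23, a midzone motor, was at 40.7 and 40.9 against 42.8 and 48.3 RPKM. Kif11, the motor that pushes spindle poles apart, was the one gene lower in both Kcnh2-/- libraries, by a small margin: 50.3 and 49.2 against 48.9 and 47.6 RPKM. Tpx2, Kif20a, Nusap1 and Hmmr overlapped, with pooled differences from -0.04 (Tpx2) to 0.17 (Hmmr). Of the chromosome structure genes, Top2a, the topoisomerase that untangles sister DNA, was at 135 and 212 against 209.6 and 236 RPKM, with WT replicate 1 alone low. Mki67, which coats mitotic chromosomes and is the Ki-67 proliferation marker, was at 18.4 and 27.5 against 16.9 and 20.1 RPKM.

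In all, 8 of the 46 genes (17.4%) were higher in both Kcnh2-/- libraries than in either WT library. The share was 16.7% of all genes tested and 21.2% of those at a mean of 10 RPKM or more, so theirs was near the background. The 8 were Pola1, Rrm2, Tyms, Cdk1, Cdc25c, Kif23, Birc5 and Prc1. In the opposite direction there was 1 of 46 (2.17%), Kif11, against 15.3% of all genes tested and 11.2% at that level. Within replicate 1, 35 of the 46 (76.1%) were higher in Kcnh2-/-, against 50.6% of all genes tested and 56.6% at that level. Within replicate 2, 20 of the 46 were higher, against 51.8% of all genes tested. There, 26 (56.5%) were lower, against 39.9% at that level. Both comparisons were higher for 15 of the 46 (32.6%), 4 for S phase and 11 for mitosis, against 30.8% of all. A gene higher in Kcnh2-/- within replicate 1 and lower within replicate 2 was found 20 times among the 46, 11 for S phase and 9 for mitosis, against 19.7% of all. Kcnh2-/- replicate 2 was the highest of the 4 libraries for 15 of the 46, against 30.4% of all.

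**Figure D4:**
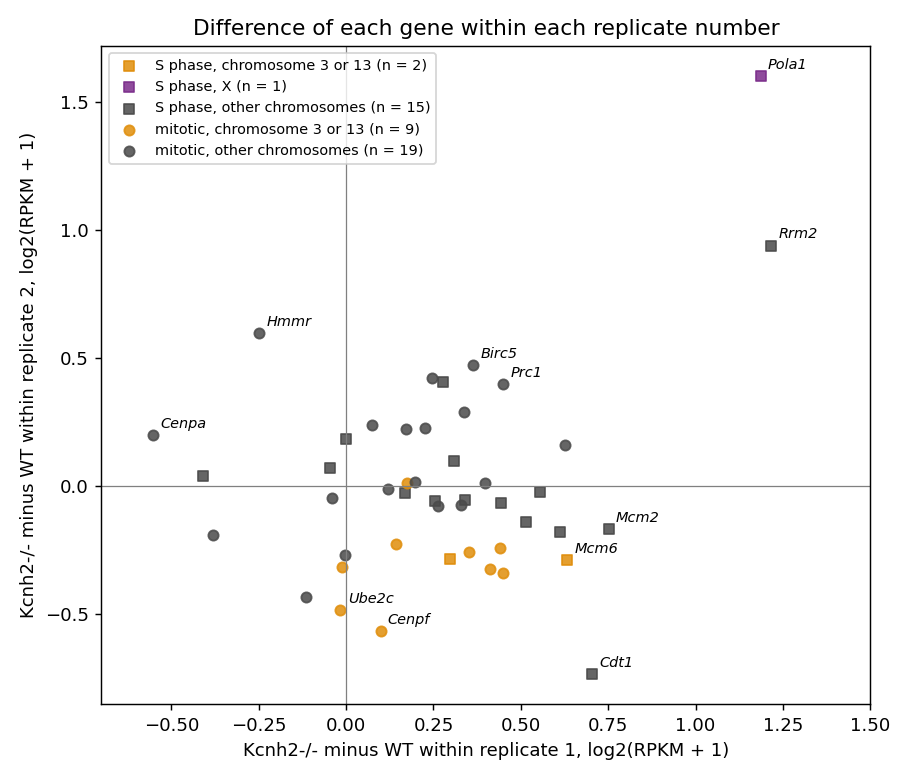
Difference between Kcnh2-/- and WT in log2(RPKM + 1) for each of the 46 genes, within replicate 1 (x axis) and within replicate 2 (y axis). Squares are S phase and circles mitotic genes, orange for chromosomes 3 and 13, purple for X. Pola1 and Rrm2 lie far to the upper right, and 10 of the 11 orange genes lie below 0 on the y axis.

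Position on the chromosomes went with the sign of the differences within replicate 2, a comparison chosen after the values were seen. Genes on chromosomes 3 (Pcna, Aurka, Bub1, Bub1b, Cdc25b, Nusap1, Tpx2 and Ube2c) and 13 (Mcm6, Cenpf and Nek2) make up 11 of the 46, and none lies on chromosome 16. Within replicate 2, 10 of these 11 were lower in Kcnh2-/- (median -0.29), against 16 of the 35 on other chromosomes (median 0.01). Over all 1263 genes tested on chromosomes 3 and 13 the median was -0.33 within replicate 2 and 0.01 within replicate 1. Within replicate 1 the 11 had a median of 0.30 and the 35 of 0.26. The high library was WT replicate 2: it was the highest of the 4 for 8 of the 11 genes (72.7%) and for 8 of the 35 (22.9%), against 55.2% of all genes tested on these chromosomes and 26.8% of all genes. Aurka, the centrosomal kinase, gives an example, at 46.6 and 90.9 RPKM against 62.3 and 72.5, and Bub1, a checkpoint kinase, another, at 76.2 and 109 against 97.4 and 91.4. Among the mitotic genes the median within replicate 2 was -0.32 for the 9 on these chromosomes and 0.16 for the 19 elsewhere. Without genes of chromosomes 3, 13, 16, X and Y, the pooled median difference was 0.16 for mitotic and 0.19 for S phase genes. What set WT replicate 2 apart on these chromosomes was not tested.

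**Figure D5:**
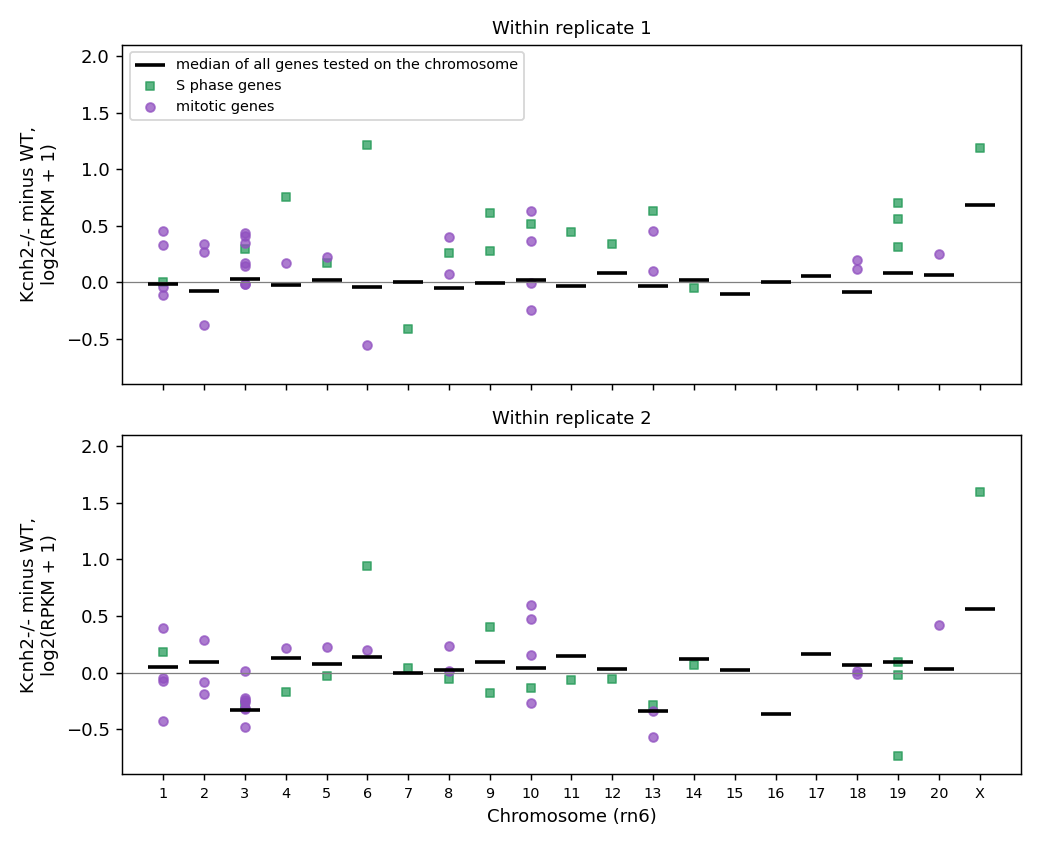
Difference between Kcnh2-/- and WT in log2(RPKM + 1) by chromosome, within replicate 1 (top) and within replicate 2 (bottom). Black bars are the median of all genes tested on a chromosome, and points are S phase (squares) and mitotic (circles) genes. Within replicate 2 the bars of chromosomes 3, 13 and 16 lie at -0.33, -0.34 and -0.37, and those of the other autosomes between -0.01 and 0.16.

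Other genes of the same pathways were compared by lists, and none passed the test. Of 44 further replication genes, 0 were called, against 0.113% of all genes tested, and the median difference was 0.13. In both Kcnh2-/- libraries 14 (31.8%) were above both WT libraries and 5 (11.4%) below, against 16.7% and 15.3% of all genes tested. Ccne2, cyclin E2, was at 21.0 and 8.55 RPKM against 8.17 and 2.54 (log2 difference -1.35 ± 0.67 SE, limma adjusted p = 0.980). Rfc5, of the clamp loader, was at 89.5 and 89.3 against 124 and 117 RPKM. Dut, which removes dUTP, was at 137 and 193 against 222 and 233, and Uhrf1, which maintains DNA methylation behind the fork, at 103 and 233 against 200.3 and 244.

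Of 43 further mitotic genes, 0 were called, against 0.113% of all genes tested, and the median difference was 0.17. In both Kcnh2-/- libraries 11 (25.6%) were above both WT libraries and 2 (4.65%) below, against 16.7% and 15.3% of all genes tested. Kif4a, an X-linked chromokinesin, was at 20.9 and 16.2 RPKM against 30.2 and 109, with Kcnh2-/- replicate 2 far above the rest. The centromere gene Cenpn was at 36.7 and 31.9 against 49.4 and 50.1 RPKM. The condensin gene Ncaph, on chromosome 3, was at 24.0 and 29.8 against 20.9 and 17.3. Cks2, a small partner of Cdk1, was the most abundant of this list at 187 and 338 against 197 and 531, and Bub3, of the checkpoint, was at 137 and 166 against 149 and 216. Their groups overlapped for Cks2 and Bub3 only.

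Of 22 regulators of the program, 0 were called, against 0.113% of all genes tested, and the median difference was -0.04. For 3 (13.6%) both Kcnh2-/- values were the higher ones and for 5 (22.7%) the lower ones, near the 16.7% and 15.3% of all genes tested. E2f7, a repressive E2F, was at 4.35 and 3.78 RPKM against 2.74 and 1.68 (log2 difference -0.68 ± 0.36 SE, limma adjusted p = 0.980). Lin9, a MuvB subunit, was at 14.8 and 13.9 against 10.9 and 9.64 RPKM, and Cdkn1b, the inhibitor p27, at 17.8 and 12.9 against 9.03 and 12.0. In all of these 3 both Kcnh2-/- libraries were below both WT libraries. Tfdp1, the partner of E2F factors, was at 81.8 and 123 against 85.4 and 95.0 RPKM. Cdkn1a, the inhibitor p21, was at 37.5 and 86.4 against 49.9 and 146, with both replicate 2 libraries above both replicate 1 libraries.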

How the data were processed

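Per the labels' protocols, ribosomal RNA was removed before libraries that keep the strand were made and read as 100-bp pairs. The authors deposited 1 table of RPKM per library. The submitters' processing notes name TopHat2 2.0.13, Cufflinks 2.2.1 and rn6, with an annotation not given in the sources used here. These are not counts, and absolute depth is unknown. Over genes under 0.08 RPKM, the most common ratio between libraries was 0.96 to 1.05.

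The 12355 genes that reached 1 RPKM in 2 or more libraries entered limma 3.58.1 (R 4.3.3; lmFit, then eBayes with trend) as log2(RPKM + 1), two-sided, with no replicate term and Benjamini-Hochberg adjustment at 0.05. Protein-coding genes were those named so in a RefSeq table (GRCr8), 18638 of 32753. The members, gene lists and alternatives were chosen with earlier results of these data known. By rule, values in every library are printed in each group for the 8 genes of smallest p and the 5 of highest level, and of each other list for the 3 of smallest p and the 2 of highest level. Other genes were named after their values were seen. Another gene overlaps the locus of 6 of the 46 (Mcm7, Tpx2, Pola1, Ccna2, Kif20a and Birc5), where the authors' tools may have divided reads. Python 3.11.15 with numpy 2.4.6, pandas 2.3.3 and matplotlib 3.10.9 made the tables and drew the plots.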

Additional observations from a re-analysis of the deposited data

How the results depend on the processing

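With 2 libraries per genotype and unknown depth, small differences could not be resolved. Of 15 other settings, and 1 more chosen after the data were seen, the fit with a replicate block called 28 genes and, with protein-coding genes alone as well, 81 (57 higher, 24 lower), against 14. Pola1 was the 1 S phase gene called in that last fit (1.39, limma adjusted p = 0.0433) and no mitotic gene was called in any. The replicate block over all genes gave Pola1 a limma adjusted p of 0.200. The labels give no source shared by same-numbered libraries, so the block is not the main fit, although deviations of same-numbered libraries correlated at 0.38 over 12355 genes. Counts of calls fell to 1 with no filter on level, and to 3 each with a pseudocount of 5, with protein-coding genes alone, and with no variance trend. Quantile normalization moved the S phase median to 0.0228 and turned the sign of Mcm4 (-0.0231), Pcna (-0.29), Mcm7 (-0.14), Mcm6 (-0.0548) and Cdc20 (-0.0385), and the mitotic median to -0.06. Leaving out 1 library at a time, the S phase median ran from 0.0213 to 0.42 and the mitotic median from -0.0954 to 0.27, and called genes from 10 to 16. The differences ran from -0.0225 to 0.61 for Mcm2, -0.0648 to 0.60 for Mcm5, -0.39 to 0.0185 for Cdk2, -0.24 to 0.25 for Pcna, -0.14 to 0.49 for Mcm6, -0.55 to 0.00176 for Mki67, -0.0273 to 0.65 for Ccnb1, -0.59 to 0.13 for Cenpf and -0.21 to 0.66 for Cdc20. With no turned sign they ran from 0.18 to 0.51 for Tyms, 0.18 to 0.49 for Cdk1, 0.0723 to 0.71 for Top2a, -0.49 to -0.0838 for Cenpe, 0.0139 to 0.42 for Mcm3, 0.0603 to 0.32 for Mcm4, 0.0367 to 0.25 for Mcm7 and 0.54 to 1.61 for Rrm2. The cause of these moves was not tested. Of the 20 cell cycle genes named by rule, 9 kept their sign in every setting run, Pola1, Rrm2, Tyms, Prc1 and Birc5 among them. Mcm3, Top2a and Cenpe, also among the 9, have groups that overlap. The groups of Pola1, Rrm2, Tyms, Prc1, Birc5 and Cdk1 do not overlap, so leaving out 1 library could not turn their sign. Their kept sign therefore adds no support to the differences.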

Other observations

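The balance between S phase and mitotic genes differed between libraries. The mean log2(RPKM + 1) of the 18 S phase genes less that of the 28 mitotic genes was 0.20 and 0.16 in WT and 0.47 and 0.26 in Kcnh2-/- replicates 1 and 2, so Kcnh2-/- replicate 1 was the library with the most S phase over mitotic RNA. The ratio of Cdk1 to Cdk2 was 8.72 and 12.9 in WT and 14.0 and 16.8 in Kcnh2-/-, and that of Ccnb1 to Ccna2 was 1.58 and 2.09 against 1.66 and 2.70. The microRNA genes Mir106b, Mir93 and Mir25, which lie within Mcm7, were listed at 0 in every library, where a 0 can be a failed estimate for a short gene.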
